A study of Homo sapiens with 12 samples.

Results

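The comparison described here sets HK-2 cells exposed to CdCl for 48 h against HK-2 control cells of the same 48 h. Its members are the 3 arrays labelled CdCl and 48 h and the 3 arrays labelled as their 48 h control, 6 of the 12 arrays in the series, read over all 41091 of 54675 probe sets that carry exactly 1 gene symbol. The remaining 6 arrays hold CdCl and control cells at 12 h, 3 each, with controls of their own. The series belongs to a study of several compounds that looked for signatures of toxicity in gene expression. HK-2 cells derive from the proximal tubule of a human kidney and were immortalised, and all 4 groups are this 1 line. Their medium, a DMEM and F12 mixture, held EGF and hydrocortisone besides insulin, transferrin and selenite, and the cells were near confluence when treated. The labels name the agent CdCl, the chemical symbols of cadmium and chlorine. Neither its dose nor the vehicle is stated in the labels. The labels call the 3 samples of a group biological replicates. The p-values for genes weigh a difference between group means against the spread among replicates, estimated over all 4 groups.

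Cadmium is a toxic metal that accumulates in the proximal tubule, where filtered metal is taken up and bound. Cells answer it by making metallothioneins, small cysteine-rich proteins that bind zinc, copper and cadmium and are induced through the zinc-sensing factor MTF1. Cadmium also reacts with thiols, and genes of the NRF2 programme (glutathione synthesis, thioredoxin, quinone reductases and heme oxygenase) and of the heat shock programme are known to respond to it. The proximal tubule reabsorbs bicarbonate, phosphate, amino acids and water, and its cells carry transporters, claudins and cadherins particular to that work.

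Each value is a GCRMA signal on the log2 scale, so a difference of 1 is a 2-fold difference. Array medians of the series lay between 2.97 and 3.04, and replicate arrays at 48 h correlated at 0.9965 to 0.998. The replicate 2 array of CdCl read lowest of the 48 h arrays on both kinds of control probe sets. Its poly-A spike-ins, RNAs added before labelling, averaged 5.74 over 24 probe sets against 6.64 and 6.54 on the other CdCl arrays. Control arrays, at 6.05, 6.12 and 6.24, lay between these, so the CdCl arrays spread to both sides of them. Its hybridisation controls averaged 10.08 against 10.47 and 10.42 on the other CdCl arrays and 10.59, 10.57 and 10.38 on control arrays. The 3' minus 5' difference for actin, a sign of RNA integrity, was 1.5 ± 0.12 in control and 1.63 ± 0.22 in CdCl arrays (SD, n = 3, exact permutation p = 0.4, two-sided, where 3 against 3 cannot go below 0.1). Without CdCl replicate 2 the comparison called 2739 genes higher and 2750 lower, against 2835 and 2995 with it.

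The label proximal tubule was borne out by few of its markers. Of 11 proximal tubule markers on the array, MIOX and PDZK1 lay over 4 on all 6 arrays and 9 lay under 4 on all 6, among them the endocytic receptors LRP2 and CUBN, the water channel AQP1 and the phosphate transporter SLC34A1. The mean over the 11 markers lay between 4.03 and 4.09 on control arrays and between 3.86 and 3.89 on CdCl arrays. That lower mean comes from PDZK1, with group means of 10.4 and 8.22, while MIOX had 8.77 and 8.93 and the 9 others had means between 2.33 (SLC22A6) and 3.18 (GGT1) in both groups. Endothelial and leukocyte markers lay under 4 on all 6 arrays, 8 of 8 in each list. Of 8 fibroblast markers 3 lay over 4 on all 6 arrays: COL1A1, DCN and LUM. Of 5 podocyte markers on the array 3 lay under 4 on all 6 arrays and 2 lay over 4 on all 6. These were PTPRO, with group means of 12.51 in control and 12.61 with CdCl, and SYNPO (5.74 and 6.16). Of 12 markers of other nephron segments 9 lay under 4 on all 6 arrays, and only AQP2 (4.39 and 4.32) lay over 4 on all 6. Bulk RNA cannot tell fewer cells of a kind from less RNA per cell.

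At 48 h more metallothionein, reductase and chaperone genes were higher than lower with CdCl, and most genes for DNA replication and mitosis were lower. Other oxidant-defence lists moved both ways. Large falls were also seen in single genes of tubular transport and cell-cell contact such as SLC6A13, SLC4A4, CLDN2 and CDH16. A gene was read from its probe set with the highest mean and tested if that passed 4 on at least 3 of the 12 arrays, which 10683 of 19775 genes did. With limma and Benjamini-Hochberg adjustment over these genes, 2835 (26.5%) were higher and 2995 (28.0%) lower with CdCl at an adjusted p under 0.05, 54.6% in all. These shares are the background against which every list below is read. Most changes were small. The median absolute change was 0.31, while 515 genes (4.82%) rose and 540 (5.05%) fell by at least 2-fold, 115 and 84 by at least 4-fold, and 12 and 4 by at least 16-fold. All 3 CdCl arrays lay above all 3 controls for 3112 genes (29.1%) and below for 3299 (30.9%), so that 60.0% did not overlap. The median change over all tested genes was -0.02. Lists cover their tested members only, since genes under the filter could not be called.

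**Figure D1:**
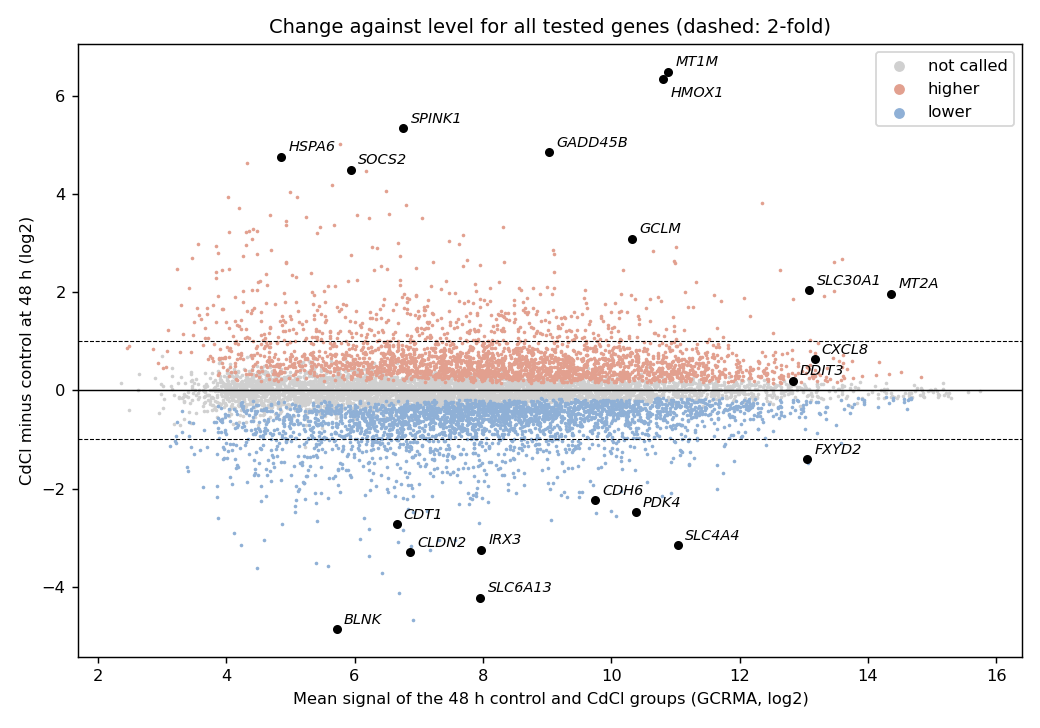
Change of each of 10683 tested genes at 48 h (CdCl minus control, log2) against its mean signal over the 48 h groups (log2), with called genes coloured. The 515 rises and 540 falls beyond the dashed 2-fold lines lie at all levels, with MT1M (6.49) and HMOX1 (6.34) highest and BLNK (-4.86) lowest among the labelled genes.

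Metallothioneins rose together. Of 8 tested members 7 were higher and 0 lower, all 7 by at least 2-fold, with a median of 2.53 and a range from 0.38 to 6.49. MT1M, an inducible metallothionein, read 7.4, 7.48 and 8.05 on the control arrays and 14.22, 13.99 and 14.19 on the CdCl arrays. The groups lay far apart, the gene was 90.1-fold higher (log2 change 6.49 ± 0.14, SE of the fit, limma adjusted p = 6.4e-11), the largest rise among genes measured in both groups. MT1G read 10.41, 10.32 and 10.63 in control and 14.2, 14.42 and 14.15 in CdCl cells, 14.0-fold higher, with 1.2 on its second probe set and 2.51 over all of them (log2). MT1X went from 12.25 ± 0.11 to 14.93 ± 0.04 (SD, n = 3) and MT1F from 12.17 ± 0.04 to 14.78 ± 0.03. MT2A, the most widely expressed member, was high in control cells too, at 13.36, 13.48 and 13.3, and read 15.32, 15.36 and 15.36 with CdCl, where the brightest probe set of these arrays read 15.67 to 15.77. Metallothionein genes are near copies of each other, so a probe set may read more than 1 of them.

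Promoter sequences of RefSeq (GRCh38.p14, the 250 bases before the annotated start) are shown for MT1X and MT2A because they carry the letters of the metal response element core, the site MTF1 is known to bind. The capitals mark TGCACNC or TGCGCNC on either strand. The MT1X window is chr16:56682220-56682469 on the plus strand and holds 4 matches. The MT2A window is chr16:56608334-56608583, also on the plus strand, and holds 7.
MT1X: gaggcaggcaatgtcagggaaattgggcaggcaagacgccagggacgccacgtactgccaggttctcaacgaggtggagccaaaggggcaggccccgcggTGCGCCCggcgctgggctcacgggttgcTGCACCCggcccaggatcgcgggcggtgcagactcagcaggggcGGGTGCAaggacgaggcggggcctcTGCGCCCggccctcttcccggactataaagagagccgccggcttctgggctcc
MT2A: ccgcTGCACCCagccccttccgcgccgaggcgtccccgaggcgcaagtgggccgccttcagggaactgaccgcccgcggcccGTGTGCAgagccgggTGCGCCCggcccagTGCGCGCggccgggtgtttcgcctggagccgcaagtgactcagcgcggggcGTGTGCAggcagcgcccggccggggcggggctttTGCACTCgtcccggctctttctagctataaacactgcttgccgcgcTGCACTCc
All 3 metallothionein promoters in the table held the core, with 6.33 matches on average. Of all 27305 promoters listed there, 24.7% held at least 1 match, and the mean was 0.334. Of the 8864 promoters of tested genes 33.9% did, with a mean of 0.472. The core is short, so a single match is common, and a match is a description of letters and not a bound site. Promoters of MT1M and MT1G are named only.

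Of 23 tested zinc and metal transporters 15 were higher and 1 lower (median 0.27). SLC30A1, which moves zinc out of the cell, read 12.01, 12.14 and 12.07 in control and 14.12, 14.1 and 14.13 in CdCl cells, and SLC30A2, a vesicular zinc transporter, was 5.46-fold higher. The other tested SLC30 genes lay between -0.15 (SLC30A4) and 0.24 (SLC30A6), named after their values were seen. SLC39A4, a zinc importer, rose by 0.87 ± 0.08, a change not called at 12 h, and SLC39A10, another importer, was the 1 member that fell, by 0.73 ± 0.06.

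Haem and iron genes moved both ways. Of 22 tested members 11 rose and 8 fell. HMOX1, the enzyme that breaks haem down to iron, carbon monoxide and biliverdin, read 7.64, 7.6 and 7.66 on control arrays and 13.92, 13.99 and 14.02 on CdCl arrays, 81.1-fold higher, with the groups far apart. SLC40A1, ferroportin, the cellular iron exporter, fell by 1.98 ± 0.18, ALAD, an early enzyme of haem synthesis, fell by 1.48 ± 0.14, and FLVCR1, a haem exporter, changed by -1.26 ± 0.12. Haem synthesis went both ways, since ALAS1 and FECH, its first and last enzymes, named after their values were seen, rose by 0.61 and 0.63. Averaged over all their probe sets the change was -0.99 for SLC40A1 and -0.87 for ALAD, still lower.

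The glutathione pathway rose at its rate-limiting step and not throughout. Of 13 tested genes for cystine uptake and glutathione, 5 were higher and 3 lower (median 0.03). GCLM, the regulatory subunit of the enzyme that joins glutamate to cysteine, read 8.82, 8.7 and 8.8 in control and 11.83, 11.98 and 11.8 in CdCl cells, and GCLC, its catalytic subunit, rose 3.46-fold. CHAC1, which degrades glutathione, was lower in CdCl cells (-1.26 ± 0.21), with the controls spread from 6.16 to 7.25. The promoter of GCLM (chr1:93909431-93909680, minus strand, printed 5' to 3' along the gene) is shown for its 1 match to the antioxidant response element core, the site of NRF2, in capitals (TGACNNNGC on either strand).
GCLM: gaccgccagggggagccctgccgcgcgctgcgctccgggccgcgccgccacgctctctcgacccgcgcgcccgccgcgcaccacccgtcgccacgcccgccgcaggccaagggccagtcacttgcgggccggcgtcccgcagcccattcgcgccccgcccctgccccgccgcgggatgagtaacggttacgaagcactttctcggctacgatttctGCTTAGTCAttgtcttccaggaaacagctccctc
This core stood in 3013 of all 27305 promoters in the table and in 1094 of the 8864 of tested genes. It stood in 3 of the 8 promoters listed for the glutathione genes. In the thioredoxin and peroxidase list 1 of 14 promoters held it, and in the reductase list 2 of 11. The promoters of GCLC, SRXN1 and NQO1, genes that also rose, held 0 matches. The promoter of HMOX1 is named only.

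Reductases formed 1 of the lists richest in rises. Of 13 tested aldo-keto, carbonyl and quinone reductases 9 were higher and 3 lower, 6 of the rises at least 2-fold, with a median of 0.82. NQO1, which reduces quinones, read 9.67, 9.65 and 9.78 in control and 12.43, 12.23 and 12.23 in CdCl cells, 6.06-fold higher. NQO2, its relative, read 8.16, 7.93 and 8.13 against 10.16, 10.16 and 10.13, and its rise of 2.08 ± 0.07 exceeded that at 12 h by 1.57 (interaction adjusted p = 1.3e-06). AKR1C1 and AKR1C2, near-identical ketosteroid reductases that the probe sets may not separate, rose by 2.53 ± 0.22 and 1.79 ± 0.19. Averaged over probe sets NQO2 changed by 1.06, AKR1C1 by 0.91 and AKR1C2 by 1.18.

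The thioredoxin and peroxidase genes moved both ways, 7 higher and 4 lower of 18. SRXN1, sulfiredoxin, which repairs oxidised peroxiredoxins, rose 4.26-fold, and TXNRD1, thioredoxin reductase, rose by 1.89 ± 0.07 on its leading probe set and by 0.95 over all of them. GPX3, the glutathione peroxidase that proximal tubules secrete into plasma, read 12.65, 12.57 and 12.53 in control and 10.96, 10.95 and 10.77 in CdCl cells, 3.23-fold lower. Among NADPH-producing enzymes, 6 of 15 rose and 5 fell. ME1, the cytosolic malic enzyme, rose by 1.04 ± 0.07 and TALDO1, transaldolase of the pentose phosphate pathway, by 0.93 ± 0.07. NNT, the transhydrogenase of the inner mitochondrial membrane, fell by 1.89 ± 0.16. Of 11 glutathione S-transferases 4 were higher, GSTM3, MGST1 and GSTP1 among them, and 4 lower.

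Heat shock genes stood high at 48 h. Of 16 tested cytosolic HSP70, HSP90 and HSP110 chaperones and cochaperones 12 rose and 2 fell (median 0.56), and of 20 small HSP, BAG, DNAJ and related genes 12 rose and 3 fell (median 0.54). At 12 h the medians were 0.52 and 0.53. The effect was lower at 48 h than at 12 h for 9 of the 16 and higher for 3. Among the 20 it was lower for 8 and higher for 1. HSPA6, a strictly inducible HSP70, read 2.5, 2.4 and 2.54 on control arrays, all under 4, and 7.28, 6.95 and 7.47 with CdCl. Where a whole group lay under 4, that group was set to 4 for the fold, which is then a lower bound, and HSPA6 was at least 9.43-fold higher. Its log2 change of 4.76 became 4.04 over all its probe sets and 3.24 with values under 4 set to 4, and its near-identical neighbour HSPA7 may share the signal. BAG3, a cochaperone of selective autophagy, rose 3.88-fold and DNAJB1, the main HSP40, 3.06-fold. FKBP5, a cochaperone gene that glucocorticoid receptors are known to induce, went the other way, from 10.45, 10.64 and 10.63 to 8.63, 8.51 and 8.39. Its relative FKBP4 rose by 1.4 ± 0.08 (0.81 over its probe sets). The promoter of HSPA6 (chr1:161524290-161524539, plus strand) is shown with its 3 heat shock element units in capitals, GAANNTTC or TTCNNGAA, of which 2 overlap and print as 1 run.
HSPA6: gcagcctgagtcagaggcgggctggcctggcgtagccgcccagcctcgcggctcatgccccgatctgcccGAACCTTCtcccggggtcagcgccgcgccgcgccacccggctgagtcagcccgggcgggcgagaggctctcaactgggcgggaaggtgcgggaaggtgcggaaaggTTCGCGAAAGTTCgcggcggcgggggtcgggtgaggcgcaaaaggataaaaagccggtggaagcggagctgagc
Such a unit stood in 11.7% of all promoters in the table and in 8.56% of those of tested genes. It stood in 3 of 14 promoters of the HSP70 to HSP110 list and in 6 of 16 (37.5%) of the small HSP, BAG and DNAJ list.

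Folding genes of the endoplasmic reticulum rose widely but by little, 22 higher and 2 lower of 31, none by 2-fold. DNAJB11, a partner of the chaperone BiP, rose by 0.97 ± 0.07 and SELENOS, a membrane protein of the degradation complex, by 0.94 ± 0.08. In the proteasome list 15 of 30 subunits rose and 0 fell, with a median of 0.17 and PSMC4, an ATPase of the regulatory particle, at 0.65 ± 0.07. Averaging over probe sets gave 2 falls there. The ATF4 and CHOP genes were divided, 6 higher and 6 lower of 17. PPP1R15A, which directs dephosphorylation of eIF2 alpha, read 7.57, 7.68 and 7.72 in control and 10.51, 10.56 and 10.52 in CdCl cells, 7.33-fold higher. NUPR1, a stress-induced chromatin protein, fell by 1.45 ± 0.24. DDIT3, which encodes CHOP, read 12.66, 12.78 and 12.76 in control and 12.89, 13.02 and 12.89 with CdCl. The arrays did not overlap, but the change of 0.2 ± 0.08 (limma adjusted p = 0.042) lost its call when any of the 6 arrays at 48 h was left out (adjusted p = 0.053 to 0.14). It was also lost without CdCl 12 h replicate 2 (0.056), control 12 h replicate 1 (0.051) or control 12 h replicate 2 (0.051), and in a fit of the 48 h arrays alone (0.061). Quantile normalization (0.14) and the replicate number as a block (0.05, rounded) lost it too.

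Of 12 tested genes for serine, one-carbon and asparagine synthesis 1 rose and 7 fell (median -0.38). PHGDH, the first enzyme of serine synthesis, read 9.34, 9.37 and 9.39 in control and 7.71, 7.56 and 7.52 in CdCl cells, and PSAT1, the next, fell by 1.05 ± 0.08. From 12 h to 48 h the PHGDH mean went from 7.97 to 9.37 in control and from 7.64 to 7.59 in CdCl cells. The PSAT1 mean went from 11.47 to 11.52 in control and from 11.22 to 10.47 in CdCl cells. Amino acid transporters numbered 4 higher and 7 lower of 19 (4 lower when averaged over probe sets). The largest fall was in SLC6A13, a taurine and GABA transporter of the proximal tubule, at 10.13, 9.93 and 10.16 in control and 5.71, 5.72 and 6.13 with CdCl, 18.6-fold lower (adjusted p = 3.7e-09) and -2.42 on the log2 scale over all its probe sets. SLC3A1, which carries the brush border cystine transporter to the membrane, fell by 2.2 ± 0.1 (-0.71 over its probe sets). SLC7A11, the cystine and glutamate exchanger, went from 10.51 ± 0.06 in control to 11.06 ± 0.12 with CdCl (SD, n = 3), 1.47-fold higher, and the groups did not overlap.

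**Figure D2:**
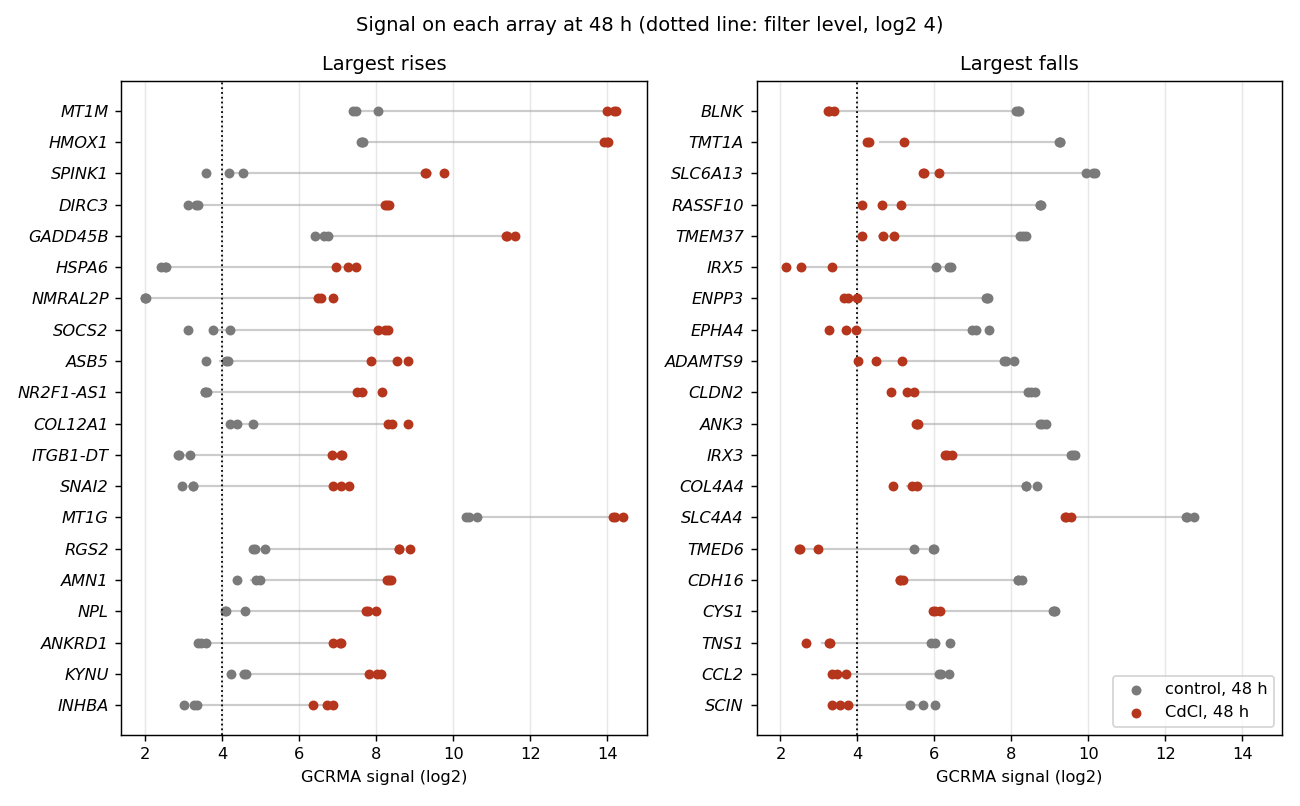
GCRMA signal (log2) on each of the 3 control (grey) and 3 CdCl (red) arrays at 48 h for the 20 largest rises and 20 largest falls by the stated rule, with a grey line joining group means and the filter level of 4 dotted. Replicates lie close together beside the gap between groups, and no group overlaps another in any of the 40 genes, which the rule required. MT1M spans 7.4 to 14.22 and TMT1A 9.27 to 4.25.

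Among the other large rises, SPINK1, a secreted trypsin inhibitor, read 4.53, 3.58 and 4.17 in control and 9.29, 9.27 and 9.75 in CdCl cells, 40.5-fold higher, with 1 control array under 4. GADD45B, a stress sensor that binds MAP kinase kinases and the G2 cyclin complex, read 6.42, 6.65 and 6.75 in control and 11.37, 11.6 and 11.39 in CdCl cells, 28.8-fold higher. SOCS2, an inhibitor of growth hormone and cytokine receptors, read 3.12, 4.19 and 3.77 in control and 8.24, 8.04 and 8.31 with CdCl. In all 3 genes the groups lay more than 3 log2 units apart. RGS2, which speeds the shut-off of G alpha q, rose 13.6-fold, KYNU, kynureninase of tryptophan breakdown, 11.4-fold, and NPL, a lyase of sialic acids, 11.9-fold. Averaged over probe sets the changes were 2.93 for SOCS2, 4.02 for GADD45B, 2.11 for KYNU and 1.62 for NPL. ASB5 rose by 4.46 ± 0.26 and AMN1 by 3.59 ± 0.17. From under 4 on all 3 control arrays, DIRC3, a long noncoding RNA, rose at least 19.4-fold to 8.32, 8.27 and 8.24. NR2F1-AS1, an antisense RNA, rose at least 13.5-fold (1.4 on the log2 scale over its probe sets), ITGB1-DT, a divergent transcript beside the integrin beta 1 gene, at least 8.09-fold, and NMRAL2P, a pseudogene transcript, at least 6.23-fold to 6.48, 6.56 and 6.87.

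Among the largest falls, TMT1A, a membrane-bound methyltransferase formerly named METTL7A, read 9.26, 9.27 and 9.23 in control and 4.29, 4.25 and 5.21 in CdCl cells, 25.4-fold lower on its leading probe set. Its other tested probe set differed by only -0.17, and the average over probe sets was -1.17, so the probe sets disagree. BLNK, an adaptor best known from B cell receptor signalling, was at least 17.8-fold lower, at 8.11, 8.16 and 8.19 in control and 3.26, 3.23 and 3.38 with CdCl, all below 4. Its control mean was 5.24 at 12 h and 8.15 at 48 h, while its CdCl means, 3.88 and 3.29, were both under 4. The wider gap at 48 h thus came mostly from a higher control. RASSF10, a RAS association domain protein, read 8.73, 8.75 and 8.77 in control and 5.13, 4.11 and 4.65 with CdCl, 17.4-fold lower. CYS1, cystin, a protein of the primary cilium, read 9.1, 9.12 and 9.07 against 6.15, 5.97 and 6.02. ANK3, ankyrin G, which anchors channels to the spectrin skeleton, was 9.6-fold lower (-0.93 over its probe sets). ENPP3, an ectonucleotidase, fell at least 10.3-fold and EPHA4, an ephrin receptor, at least 8.95-fold, -1.98 and -1.81 on the log2 scale over their probe sets. TNS1, a focal adhesion protein, fell at least 4.31-fold and SCIN, an actin-severing protein, at least 3.23-fold. Their other tested probe sets fell by less, -0.56 for TNS1 and -0.83 for SCIN (log2). TMED6, a cargo receptor of the early secretory path, fell at least 3.49-fold and TMEM37 13.1-fold, the last with probe sets from -3.12 to -0.05.

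Tubular transport genes moved both ways. Of 27 tested ion, bicarbonate and solute transporters 13 fell and 10 rose (median -0.48), 6 and 3 of them by at least 2-fold. SLC4A4, the basolateral sodium bicarbonate cotransporter that returns bicarbonate to the blood, read 12.55, 12.74 and 12.54 in control and 9.43, 9.54 and 9.4 in CdCl cells. That is 8.91-fold lower (-3.16 ± 0.11, adjusted p = 2.3e-09), and its 4 other probe sets gave -3.83 to -2.84. FXYD2, the gamma subunit of the sodium pump, read 13.77, 13.7 and 13.8 in control and 12.38, 12.47 and 12.22 with CdCl. The groups of both genes lay more than 1 log2 unit apart. KCNJ15, a potassium channel, fell by 1.44 ± 0.08, and its 4 other probe sets gave -2.95 to -1.34. NHERF1, a scaffold of the apical membrane, rose by 1.2 ± 0.07. Of 36 genes of this list on the array, 9 lay under 4 on all 6 arrays.

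Brush border genes and enzymes of the proximal tubule fell in 6 and rose in 2 of 13 tested, and 15 of 27 on the array lay under 4 throughout. PDZK1, a scaffold of apical transporters and 1 of the 2 proximal tubule markers detected, read 10.35, 10.42 and 10.41 in control and 8.32, 8.01 and 8.31 in CdCl cells, 4.53-fold lower. MIOX, the other, is the inositol oxygenase of the tubule and read 8.77 ± 0.04 in control and 8.93 ± 0.09 with CdCl (not called, limma adjusted p = 0.15). DDC, which makes dopamine from L-DOPA, fell by 2.07 ± 0.19 and ENPEP, aminopeptidase A, by 0.88 ± 0.11. Among 9 tested kidney transcription factors 6 fell and 2 rose. IRX3, a homeobox factor of nephron segments, read 9.61, 9.65 and 9.55 against 6.33, 6.45 and 6.27, and IRX5, its neighbour in the same cluster, fell at least 4.85-fold to under 4. TFCP2L1, a factor of distal segments, fell by 2.48 ± 0.25 (-1.79 over its probe sets).

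Claudins and other tight junction genes moved both ways, 6 higher and 4 lower of 18, with a median of -0.03. CLDN2, the claudin that forms the paracellular cation and water pore of the proximal tubule, read 8.5, 8.6 and 8.42 in control and 4.86, 5.48 and 5.29 in CdCl cells, 9.84-fold lower (adjusted p = 9.2e-08). The sealing claudin CLDN4 rose by 1.52 ± 0.11 (0.76 over its probe sets), CLDN12 by 1.2 ± 0.1 and OCLN, occludin, by 0.85 ± 0.11. Cadherins and catenins fell in 5 of 12, all by at least 2-fold, and rose in 2. CDH16, kidney-specific cadherin, read 8.18, 8.27 and 8.18 in control and 5.18, 5.1 and 5.1 with CdCl, 8.47-fold lower. CDH6, the cadherin of the proximal tubule, fell by 2.24 ± 0.12 on its leading probe set and by 0.19 to 3.34 on 5 others. FAT1 and FAT4, giant protocadherins, fell by 1.45 ± 0.07 and 1.36 ± 0.27.

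Injury markers were mixed, 6 higher and 6 lower of 23 (26.1% each), near the 26.5% and 28.0% of all tested genes. LCN2, lipocalin 2, a secreted siderophore-binding protein used as a urinary marker of tubular injury, read 5.29, 5.06 and 5.1 in control and 7.57, 7.81 and 7.64 in CdCl cells, 5.77-fold higher. HAVCR1, which encodes the injury marker KIM-1, read 9.8, 10.02 and 9.91 in control and 8.93, 8.97 and 8.74 with CdCl, 2.04-fold lower. VCAM1, an adhesion molecule of failed repair, fell by 2.15 ± 0.19. CD44, the hyaluronan receptor, rose by 1.87 ± 0.09, and its 7 other probe sets gave 0.94 to 2.76.

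Of 12 tested mesenchymal transition factors and markers 5 rose and 3 fell, with a median of -0.02. SNAI2 (Slug), a repressor of E-cadherin, read 3.23, 2.95 and 3.23 in control and 7.08, 6.89 and 7.29 in CdCl cells, at least 8.48-fold higher, and SNAI1 (Snail) rose at least 4.37-fold. ZEB2 read 3.97, 4.74 and 3.33 in control and 5.93, 5.3 and 6.21 with CdCl, an increase of 1.8 ± 0.36. The factor TWIST1, named after its value was seen, fell by 0.64 ± 0.09. S100A4, a classical fibroblast marker, fell by 0.73 ± 0.08. Of the fibroblast markers over 4, LUM read 8.21 ± 0.16 in control and 7.32 ± 0.19 in CdCl cells, COL1A1 7.11 ± 0.1 and 7.28 ± 0.06, and DCN 10.67 ± 0.13 and 11.04 ± 0.2. The DCN call (adjusted p = 0.018) was lost without CdCl replicate 2 (0.072), control replicate 1 (0.063) or control replicate 2 (0.062).

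The matrix list held rises and falls in near equal number, 11 and 12 of 28. COL12A1, a fibril-associated collagen, read 4.81, 4.19 and 4.39 in control and 8.3, 8.42 and 8.83 in CdCl cells, 16.6-fold higher, with 1.82 over its probe sets. COL4A3 and COL4A4, chains of the mature glomerular and tubular basement membrane, fell together. COL4A4 read 8.39, 8.66 and 8.37 against 5.54, 4.93 and 5.42 (9.04-fold lower), with -1.79 over its probe sets. COL4A3 read 8.3, 8.36 and 7.86 against 5.85, 4.45 and 5.7, with the lowest value of COL4A3 on CdCl replicate 2. LAMA2, a laminin chain, rose by 2.02 ± 0.2. Proteases and their inhibitors leaned upward, 9 higher and 1 lower of 14, with a median of 0.68. Over all 14 the control mean was higher at 48 h than at 12 h for 0 and the CdCl mean for 4. MMP1, interstitial collagenase, was at least 6.15-fold higher than control at 48 h, at 6.65, 6.53 and 6.68. Its control mean was 7.33 at 12 h and 3.25 at 48 h, and its CdCl mean 9.62 and 6.62, so both groups were lower at 48 h. PLAUR, the urokinase receptor, rose by 2.13 ± 0.18 and SERPINE2, a protease inhibitor, by 1.82 ± 0.06. ADAMTS9, a proteoglycan-cleaving protease, was the 1 fall, from 7.87, 8.06 and 7.82 to 4.47, 4.02 and 5.15 (-1.38 over its probe sets). Of 12 integrins 4 rose and 1 fell, or 4 fell without CdCl replicate 3. ITGA3, the laminin receptor subunit, read 8.57, 8.85 and 8.49 in control and 10.57, 10.52 and 10.46 with CdCl, and ITGB8 fell by 1.49 ± 0.14 (-0.8 over its probe sets).

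The TGF-beta and activin list was lower, with 12 falls and 6 rises of 22 and a median of -0.31. INHBA, the activin A subunit, rose at least 6.31-fold, from under 4 to 6.36, 6.73 and 6.89 (2.19 on the log2 scale over its probe sets). ID1, an inhibitor of differentiation factors, fell by 1.67 ± 0.12 while its relative ID2 rose by 1.59 ± 0.16. TGFBR2, the type II receptor, fell by 1.13 ± 0.08. In the Notch and Wnt list 5 rose and 7 fell of 19. DLL1, a Notch ligand, read 2.72, 2.67 and 2.71 in control and 5.79, 5.98 and 6.0 with CdCl, at least 3.8-fold higher (1.59 on the log2 scale over its probe sets). DKK1, a secreted Wnt inhibitor, rose at least 4.17-fold, and LGR4, a receptor for R-spondins, fell by 1.76 ± 0.12 on its leading probe set (-0.67 over both). ANKRD1, a target of YAP, rose at least 8.08-fold. In the list of Hippo pathway components and targets 8 of 20 fell and 4 rose, and the falls included the transcription factors TEAD1 (-0.64 ± 0.09) and TEAD4 (-0.69 ± 0.13).

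Of 15 tested AP-1 and immediate early genes 8 rose and 2 fell (median 0.52). JUN read 8.99, 8.94 and 8.96 in control and 10.11, 10.49 and 10.55 in CdCl cells, MAFF rose 4.62-fold and FOSL1 at least 3.87-fold. Of 20 MAP kinase phosphatases and EGF receptor feedback genes 10 rose and 4 fell. DUSP10, a phosphatase for JNK and p38, read 5.97, 6.2 and 6.21 against 9.07, 9.18 and 9.11, 7.96-fold higher, and DUSP5 and DUSP1 rose 4.15-fold and 3.01-fold. SPRY1, an inhibitor of receptor kinase signalling, fell at least 3.18-fold to under 4. Inflammatory genes had no common direction. CCL2, the monocyte chemokine, read 6.39, 6.13 and 6.17 in control and 3.7, 3.48 and 3.33 with CdCl, at least 4.68-fold lower. CXCL5, a neutrophil chemokine, rose 3.64-fold, CXCL8 1.56-fold and IL6 at least 3.27-fold. Over the NF-kB and chemokine list 4 of 20 rose and 5 fell, and over the IL6 and SOCS list 6 of 17 rose and 6 fell.

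DNA replication and mitosis were the lists with the largest share of falls. Of 45 tested genes for origin licensing and the replication fork 37 fell and 1 rose (median -0.89), and of 46 for mitosis, kinetochore and kinesins 41 fell and 0 rose (median -0.73). CDT1, which loads the replicative helicase at origins, read 7.94, 8.06 and 8.07 in control and 5.68, 4.99 and 5.2 in CdCl cells, 6.64-fold lower. MCM5, a subunit of that helicase, fell 4.41-fold and MCM4 3.26-fold. Among mitotic genes KIF20A, a kinesin of the spindle midzone, fell 2.9-fold and NUSAP1, a spindle microtubule protein, 2.73-fold. MKI67, the proliferation antigen, read 7.29, 7.28 and 7.56 against 6.24, 5.89 and 6.54. Its control mean was 9.9 at 12 h and 7.37 at 48 h, and its CdCl mean 8.47 and 6.22. Both lists were lower at 48 h than at 12 h in control cells too. The median shift between the times was -1.35 in control and -1.34 in CdCl cells for the licensing and fork list. For the mitosis list it was -1.99 and -1.8. These shifts are group means with no test. Nucleotide synthesis fell in 17 of 25 and rose in 2, with RRM2, the ribonucleotide reductase subunit of S phase, 3.1-fold lower and TYMS, thymidylate synthase, 2.55-fold lower. In recombination and Fanconi repair 16 of 24 fell and 1 rose. RMI2, of the Bloom helicase complex, fell by 1.73 ± 0.07 and BARD1, the partner of BRCA1, by 1.59 ± 0.09. The promoter of CDT1 (chr16:88803539-88803788, plus strand) is shown for its E2F site, in capitals, 1 of the letters TTTGGCGC, TTTCCCGC or TTTCGCGC on either strand.
CDT1: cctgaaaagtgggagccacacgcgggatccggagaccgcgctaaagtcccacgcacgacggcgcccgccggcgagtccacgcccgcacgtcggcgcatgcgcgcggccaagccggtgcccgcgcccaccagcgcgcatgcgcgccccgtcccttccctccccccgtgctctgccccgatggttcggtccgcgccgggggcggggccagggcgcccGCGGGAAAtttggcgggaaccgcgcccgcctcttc
These letters stood in 2.38% of all promoters in the table and in 3.98% of those of tested genes. They stood in 12 of the 39 promoters of the licensing and fork list (30.8%) and in 3 of the 38 promoters of the mitosis list (7.89%). The promoter of MCM5 is named only.

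Regulators of the cycle divided. Of 33 cyclin, CDK, E2F and RB genes 20 fell and 5 rose. CCNE2, cyclin E2, fell 4.01-fold and E2F8, a repressor E2F, at least 1.78-fold, while its relative E2F7 rose by 1.64 ± 0.17 (0.89 over its probe sets). Of 13 GADD45 genes and CDK inhibitors 6 rose, all by at least 2-fold, and 3 fell. CDKN1A, p21, read 9.4, 9.45 and 9.52 in control and 10.64, 10.53 and 10.44 with CdCl. CDKN2B, p15, rose by 1.65 ± 0.15 (0.91 over its probe sets), and all 3 GADD45 genes rose. GADD45A went from 10.15 ± 0.07 to 12.16 ± 0.21, and GADD45G from 2.01, 1.99 and 2.01 to 4.28, 4.18 and 4.99, at least 1.4-fold higher. Of 23 p53 targets 9 rose and 8 fell, with SESN1, sestrin 1, lower by 1.95 ± 0.16 and PHLDA3 higher by 1.27 ± 0.11. Of 25 apoptosis regulators 8 rose and 8 fell. HRK, a BH3-only protein, rose 7.58-fold on its leading probe set (1.41 over its probe sets), PMAIP1, NOXA, 2.05-fold and BCL2L1, an inhibitor of apoptosis, 1.85-fold.

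**Figure D3:**
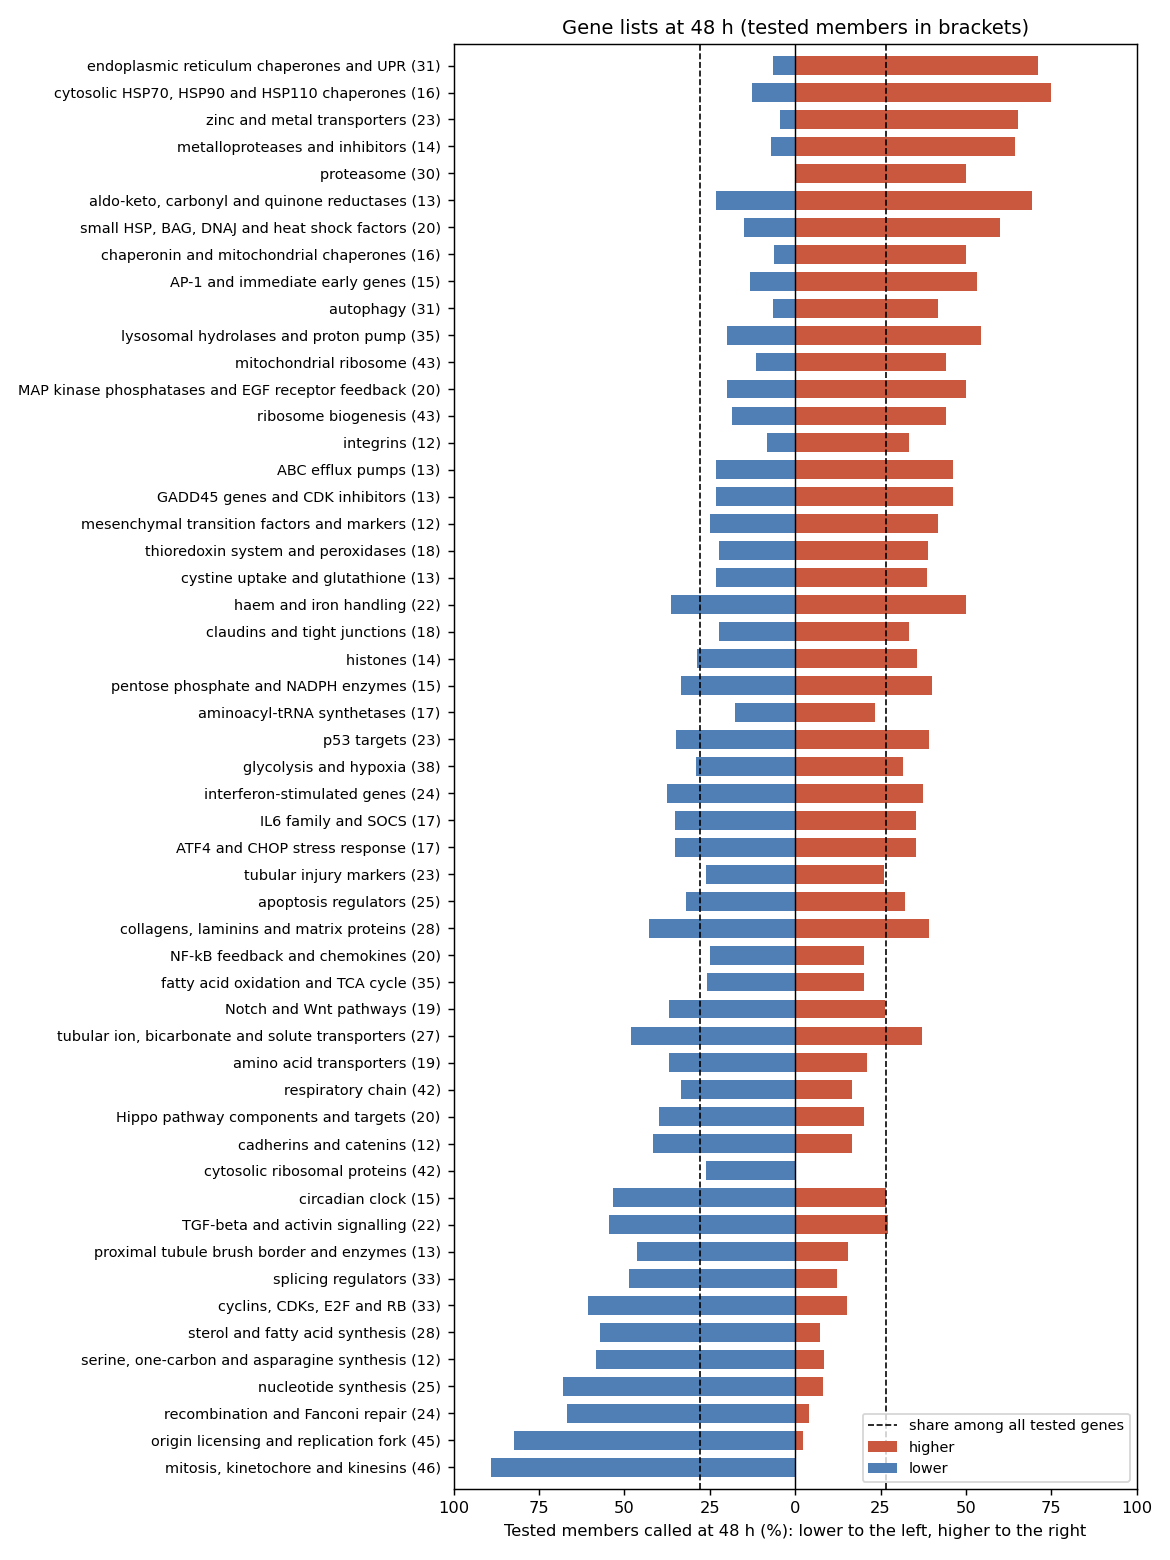
Share (%) of the tested members of each of 53 gene lists with at least 12 tested members that were higher (right, red) or lower (left, blue) with CdCl at 48 h, with the shares over all tested genes, 26.5% and 28.0%, dashed. Chaperone, reductase and zinc transporter lists extend farthest to the right, and the mitosis (41 of 46 lower) and replication lists (37 of 45 lower) farthest to the left.

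Lysosomal genes rose in a larger share than all genes did. Of 35 hydrolase and proton pump genes 19 rose and 7 fell, with a median of 0.47. CTSL, cathepsin L, read 8.76, 8.69 and 8.87 in control and 10.32, 10.34 and 10.3 in CdCl cells, 2.92-fold higher, and CTSD, cathepsin D, rose 2.3-fold. Other cathepsins fell, CTSO by 1.06 ± 0.22 and CTSF by 1.03 ± 0.13. Autophagy genes rose in 13 and fell in 2 of 31. MAP1LC3B, the coat protein of autophagosomes, rose by 1.17 ± 0.08 and TFE3, a transcription factor for lysosomal genes, by 1.23 ± 0.07, from 8.92, 8.97 and 9.03 to 10.22, 10.16 and 10.23.

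Sterol and fatty acid synthesis fell in 16 of 28 and rose in 2 (median -0.3). ACSL1, an acyl-CoA synthetase, fell by 1.14 ± 0.12 and ELOVL6, a fatty acid elongase, by 1.07 ± 0.1. INSIG2, which holds back sterol regulation, rose by 0.78 ± 0.09, while INSIG1 fell by 0.93 ± 0.14 on its leading probe set with others from -0.6 to 0.08. In the glycolysis and hypoxia list 12 of 38 rose and 11 fell. ADM, adrenomedullin, a hypoxia-inducible vasodilator peptide, read 6.51, 6.42 and 6.32 in control and 9.09, 9.0 and 9.15 with CdCl, and SLC2A1, the glucose transporter GLUT1, rose 2.66-fold (0.78 on the log2 scale over its probe sets). PDK4, which blocks pyruvate entry to the citric acid cycle, read 11.57, 11.73 and 11.55 against 9.23, 9.14 and 9.06, 5.56-fold lower. The respiratory chain changed by at most 0.77 in either direction, with 7 of 42 higher and 14 lower. Mitochondrial ribosomal proteins rose in 19 of 43 and fell in 5. The 5 falls became 1 without CdCl replicate 3, 3 without CdCl replicate 1 and 2 without control replicate 1 or control replicate 3. MRPL18 rose by 0.83 ± 0.08 and MRPS10 by 0.74 ± 0.09. Ribosome biogenesis rose in 19 and fell in 8 of 43 (5 without control replicate 2). Cytosolic ribosomal proteins rose in 0 of 42 and fell in 11 (26.2%), a share of falls near the 28.0% of all tested genes. These 11 falls are small, the largest 0.36, and 5 to 7 were left when CdCl replicate 1, CdCl replicate 3, control replicate 1 or control replicate 3 was left out.

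The changes at 48 h differed in part from those at 12 h. Each time has its own controls, and the difference of the effects, 48 h minus 12 h, was tested in the same limma fit. It was higher for 2888 genes (27.0%) and lower for 1394 (13.0%), 40.1% of genes in all, where the 12 h comparison itself called 16.7% of genes higher and 39.7% lower with a median of -0.16. Of the 2835 genes higher at 48 h, 1217 were also higher at 12 h, 1181 were not called there and 437 were lower there. All 437 passed the test of the difference. Opposite effects add up in that difference, so this outcome was close to fixed in advance and is no further support. Of the 2995 lower at 48 h, 2035 were lower at 12 h too, 837 were not called and 123 were higher there. All 123 were past that test, for the same reason. The difference can come from either group, because control cells also differed between the times. Of the 1394 genes with a lower effect at 48 h, the control mean was higher at 48 h than at 12 h for 830 and the CdCl mean was higher for 310. Of the 2888 with a higher effect, the control mean was lower at 48 h for 1942 and the CdCl mean was lower for 653. Over all 10683 tested genes the control mean was higher at 48 h for 4781 and the CdCl mean for 5868. The control shift enters the difference with a minus sign, so picking genes by the difference favours such counts. These shifts between the times are group means with no test, and over all tested genes their median was -0.06 in control and 0.05 in CdCl cells.

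**Figure D4:**
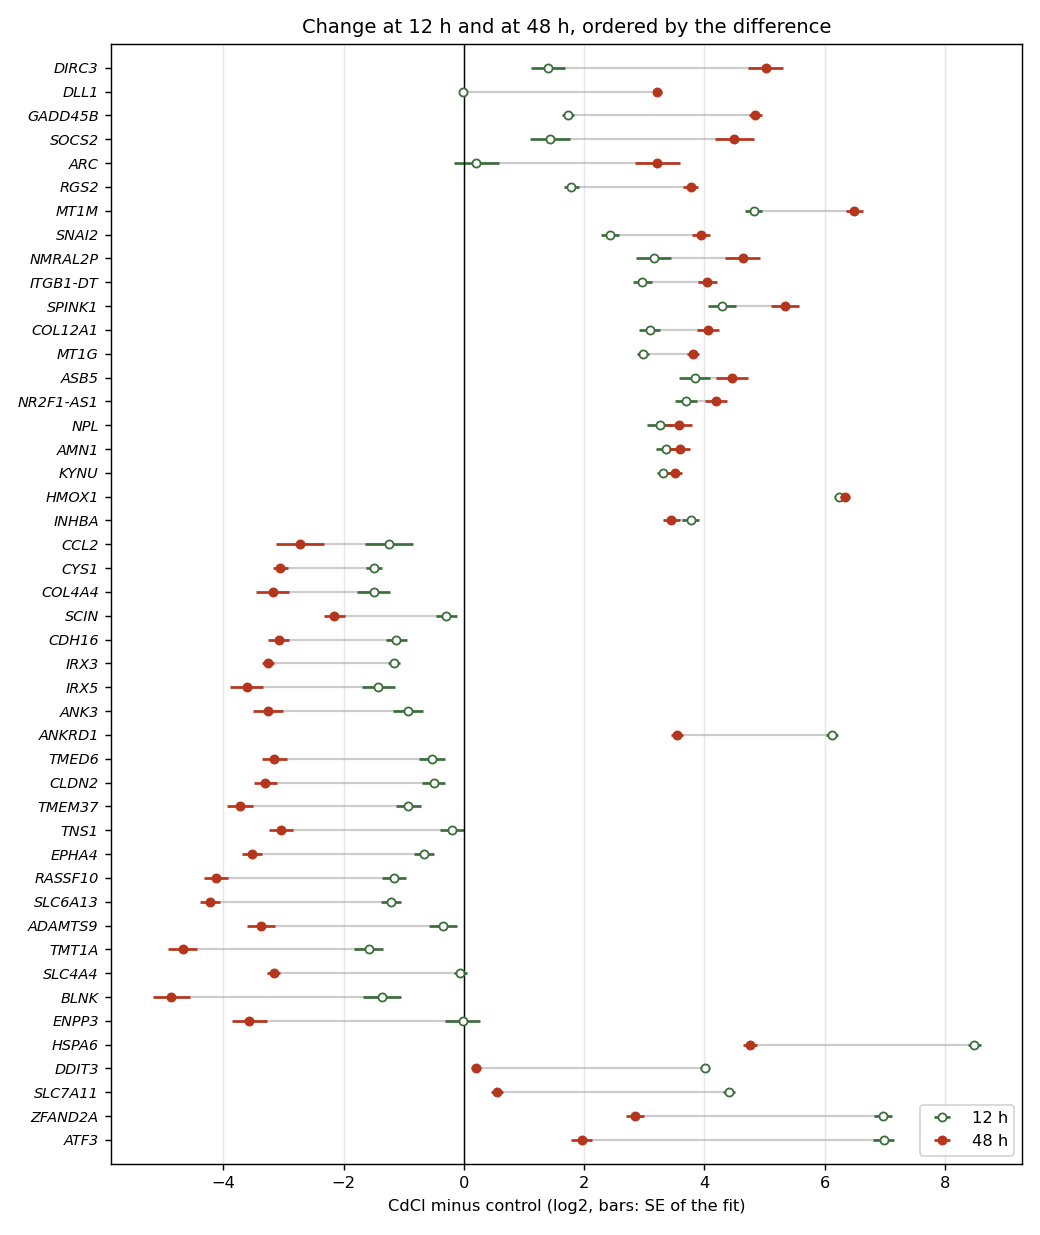
Change with CdCl (log2, bars: SE of the fit) at 12 h (open green) and 48 h (red) for the 46 named genes of the largest changes and the largest time differences, ordered by 48 h minus 12 h. DIRC3 (3.61) and DLL1 (3.23) lie at the top, SLC4A4 (-3.09) lies near 0 at 12 h and well below it at 48 h, and ATF3 (-5.01), ZFAND2A and DDIT3 differ far more from control at 12 h than at 48 h.

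The genes named for the largest time differences were picked by that test, so their passing it is no further support. In the direction of a larger effect at 48 h, GADD45B rose by 4.85 ± 0.1 at 48 h and by 1.74 at 12 h, a difference of 3.11. Its control mean was 7.65 at 12 h and 6.61 at 48 h, and its CdCl mean 9.39 and 11.45. The difference for SOCS2 was 3.07, with CdCl means of 4.8 and 8.2 and control means under 4 at both times (3.37 and 3.69). DLL1 lay under 4 in both groups at 12 h and in control at 48 h, and the difference of 3.23 became 1.92 with values under 4 set to 4. ARC, an immediate early gene known from neurons, read 4.54, 6.58 and 5.87 on CdCl arrays at 48 h and lay under 4 in the other groups, with control means of 2.48 and 2.44 and a CdCl mean of 2.69 at 12 h. Its difference of 3.01 became 1.66 with values under 4 set to 4.

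Other genes also differed more from control at 48 h. LCN2 rose by 2.53 at 48 h, while both of its group means at 12 h, 3.37 in control and 3.58 in CdCl, lay under 4. MT1M rose by 1.68 more at 48 h than at 12 h. Its CdCl mean was 13.94 at 12 h and 14.14 at 48 h, while its control mean was 9.13 and 7.64, so the larger difference came mostly from a lower control. HMOX1 differed by 0.1 between the times (adjusted p = 0.54).

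Stress regulators differed less from control at 48 h than at 12 h, and 4 of the 5 named here had higher control means at 48 h. They were picked by the difference, which favours higher controls at 48 h. ATF3, a stress-induced repressor, rose by 6.98 at 12 h and by 1.96 ± 0.17 at 48 h. Its CdCl mean was 10.86 at 12 h and 11.13 at 48 h, whereas its control mean was 3.88 and 9.17. SLC7A11 rose by 4.41 and 0.56, with CdCl means of 10.83 and 11.06 and control means of 6.42 and 10.51. In both genes the mean in CdCl cells was no lower at 48 h than at 12 h. DDIT3 rose by 4.01 and 0.2, with CdCl means of 11.5 and 12.93 and control means of 7.48 and 12.73. ZFAND2A, a proteasome-associated heat shock gene, rose by 6.97 and 2.84, with CdCl means of 13.28 and 12.06 and control means of 6.31 and 9.23. HSPA6 was the exception, with control means of 2.5 and 2.48, both under 4, and CdCl means of 10.99 at 12 h and 7.24 at 48 h.

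Most members of the ATF4 and CHOP list and of the endoplasmic reticulum list also had higher control means at 48 h. Of 17 ATF4 and CHOP genes 13 were lower in the difference and 1 higher. All 13 had a higher control mean at 48 h than at 12 h, while 10 of the 13 also had a higher CdCl mean. Over all 17 the control mean was higher at 48 h for 15 and the CdCl mean for 12. The median shift from 12 h to 48 h was 1.61 in control and 0.61 in CdCl cells. Of 31 endoplasmic reticulum genes 15 were lower in the difference and 2 higher. All 31 had higher means at 48 h in both groups, with a median shift of 1.51 in control and 1.1 in CdCl cells. What set the level of the 48 h controls was not tested.

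Several genes named above for falls at 48 h differed little from control at 12 h. SLC4A4 showed -0.06 at 12 h (adjusted p = 0.67) and -3.16 at 48 h, with CdCl means of 11.83 and 9.46 and control means of 11.9 and 12.61. CLDN2 was already called lower at 12 h (-0.5, limma adjusted p = 0.044) and showed -3.3 at 48 h. Its CdCl means were 9.09 and 5.21 and its control means 9.59 and 8.51. ADAMTS9 showed -0.35 and -3.37, with CdCl means of 8.14 and 4.54. In all 3 genes the CdCl signal was lower at 48 h than at 12 h. ENPP3 was not called at 12 h, and its time difference was -3.35 with values under 4 set to 4. FXYD2 and DDC, not called at 12 h, were lower at 48 h, with differences between the times of -1.38 and -2.01. PER2, of the circadian clock, had CdCl means of 5.49 and 5.62 and control means of 5.66 and 8.04, so that its difference of -2.23 came from the control. SLC6A13, IRX3 and CDH16 were lower at both times, with differences between the times of -3.01, -2.09 and -1.97 (interaction adjusted p = 5.8e-06, 2.4e-06 and 1.2e-04).

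Some named genes changed sign between the times. ITGA3 was lower at 12 h (-0.49) and higher at 48 h (1.88), NHERF1 went from -0.28 to 1.2, UQCRC1, a core protein of complex III, from -0.26 to 0.77 and VARS1, valyl-tRNA synthetase, from -1.02 to 0.73. The reverse held for HAVCR1 (0.59 and -1.03), ID1 (0.55 and -1.67), NUPR1 (0.94 and -1.45) and SLC7A2, a cationic amino acid transporter (0.8 and -1.74). Each of these 8 was called at both times and passed the test of the difference, which opposite calls nearly fix in advance. NUPR1 had control means of 3.99 at 12 h and 8.85 at 48 h and CdCl means of 4.93 and 7.39, so both groups were higher at 48 h. Among lists, 6 of the 38 glycolysis and hypoxia genes were higher at 12 h and lower at 48 h, and 21 of the 38 were lower in the difference and 1 higher. Mitochondrial ribosomal proteins went the other way, with 4 higher and 19 lower at 12 h, 19 higher and 5 lower at 48 h, and 22 of 43 higher in the difference. Of these 22, 19 had a lower control mean at 48 h than at 12 h and 9 a lower CdCl mean. Over all 43 the control mean was higher at 48 h for 10 and the CdCl mean for 22. Lysosomal genes numbered 7 higher and 9 lower at 12 h, and 16 of 35 were higher in the difference.

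**Figure D5:**
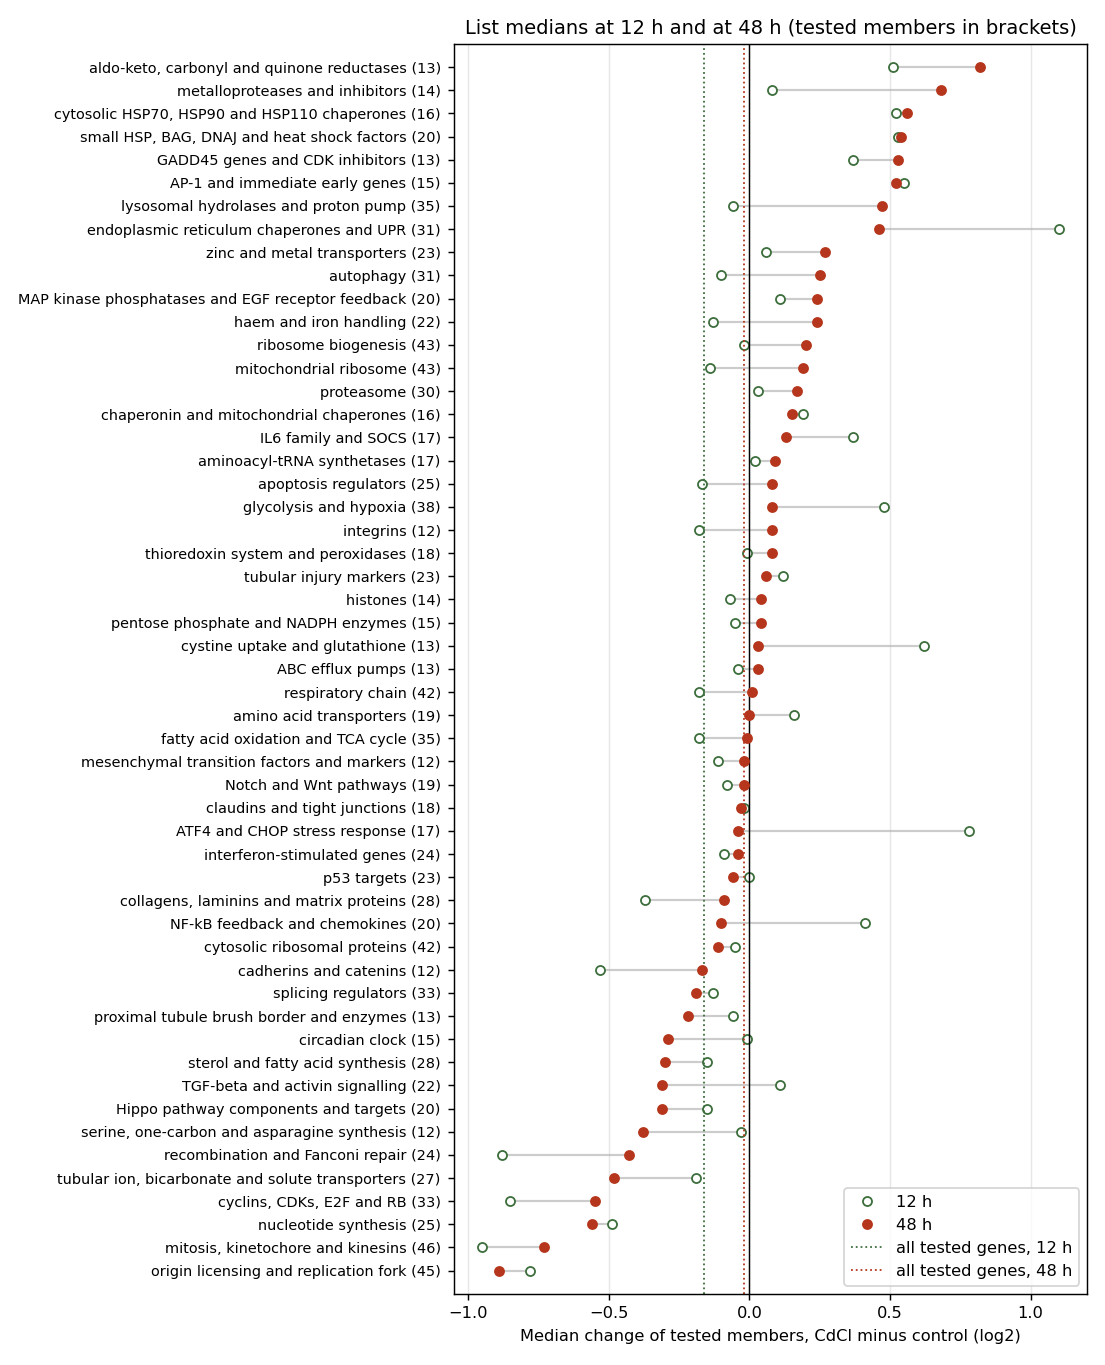
Median change (CdCl minus control, log2) of the tested members of 53 gene lists at 12 h (open green) and 48 h (red), with the medians of all tested genes, -0.16 at 12 h and -0.02 at 48 h, dotted. The ATF4 and CHOP list moves from 0.78 to -0.04 and the lysosomal list from -0.06 to 0.47, while the replication list stays low (-0.78 and -0.89).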

How the data were processed

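RNA of 12 HK-2 samples was hybridised to Affymetrix arrays. The deposited values are log2 signals that the authors made with GCRMA, per the submitters' processing notes (version not given in the sources used here). GCRMA normalises arrays together, so a global shift in RNA would not show. Probe sets with several symbols (1801), without a symbol (11721) or for controls (62) were left out. The remaining 41091 gave 19775 genes, each read from the probe set with the highest mean, and 10683 passed 4 on at least 3 arrays. limma 3.58.1 in R 4.3.3 fitted the means of all 4 groups, with Benjamini-Hochberg adjustment over all tested genes and a threshold of 0.05. The number of arrays, 3 per group, limits the precision. On simulated data for the 48 h comparison with 10683 genes, the fit recovered 60%, 92%, 100% and 100% of genes changed by 0.5, 1, 2 and 4 (log2), with 9 false among 185 calls. The simulation changed only 200 genes, where the data called 5830 (54.6%), so these rates need not hold for the data.

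Members, gene lists and tests were chosen with earlier results of these data known. Named genes are the 12 largest rises and 12 largest falls without overlap between groups, the 8 largest bounds in each direction where a group lay under 4, up to 4 genes of each list with the largest change, the 5 largest differences between the times in each direction, and a set of index genes. Promoters and motif shares come from RefSeq (GRCh38.p14), 250 bases before the start. Alternatives covered the filter, scaling, floor, probe set choice, prior, arrays fitted, replicate block and each array left out. Same-numbered CdCl and control arrays at 48 h did not deviate together (correlations -0.029, -0.336 and -0.234), so no pairing was used.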

Additional observations from a re-analysis of the deposited data

Results flagged for a closer look

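The change with CdCl differed between the times, by the limma test of 48 h minus 12 h, by at least 2 on the log2 scale in 26 of the genes with the largest changes or time differences. Values in brackets are that difference. It was positive for SOCS2 (3.07), DLL1 (3.23), GADD45B (3.11), DIRC3 (3.61) and ARC (3.01). It was negative for these genes that were higher with CdCl at 48 h: ATF3 (-5.01), ZFAND2A (-4.13), SLC7A11 (-3.86), DDIT3 (-3.81), HSPA6 (-3.73) and ANKRD1 (-2.58). It was also negative for these genes that were lower at 48 h: SLC6A13 (-3.01), SLC4A4 (-3.09), CLDN2 (-2.8), IRX3 (-2.09), ADAMTS9 (-3.02), TMT1A (-3.09), RASSF10 (-2.96), TMEM37 (-2.8), ANK3 (-2.33), BLNK (-3.5), ENPP3 (-3.55), EPHA4 (-2.86), IRX5 (-2.19), TNS1 (-2.84) and TMED6 (-2.62). These genes were picked for the size of their change, so the count describes them and not genes in general. With values under 4 set to 4 the difference was 1.92 for DLL1, 1.66 for ARC, -1.91 for TNS1, -1.53 for TMED6 and -0.86 for IRX5. Beyond control probe sets, array correlations and fits leaving out 1 array, groups of 3 were not searched gene by gene for outlying arrays.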

How the results depend on the processing

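The counts of 2835 higher and 2995 lower genes stayed within 1.5 times in every alternative fit over genes, from 2494 to 2879 higher and from 2654 to 3070 lower. Testing each of 19005 probe sets in place of genes gave 4523 higher and 4930 lower. Leaving out 1 array at a time gave 2494 to 2810 higher and 2654 to 2972 lower genes. With the replicate number as a block the counts were 2726 and 2866, although the same numbers did not pair the arrays. Among named genes the call at 48 h was lost for IL11 (0.42) and AQP3 (-0.28) with values under 4 set to 4. By the limma fit it was also lost for MRPL4 averaged over probe sets (0.22) and for H3-3A with no filter (adjusted p = 0.056). H3-3A lost it without CdCl replicate 2 at 48 h as well (0.052). RPL29 lost its call without CdCl replicate 3 (adjusted p = 0.053) or control replicate 3 (0.052) at 48 h. Signals under 4 are close to background, so a change that involves them depends on that level, and folds at 48 h against a group wholly under 4 were given as bounds. No alternative fit over genes turned the sign of a called change of a named gene. Of the other tested probe sets, 45 of genes called higher were called lower and 38 of genes called lower were called higher.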

Other observations

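Clock genes fell in 8 and rose in 4 of 15 tested. PER2, a repressor of the circadian clock, read 7.85, 8.23 and 8.02 in control and 5.43, 5.55 and 5.9 in CdCl cells at 48 h, 5.32-fold lower (-1.2 on the log2 scale over its probe sets). TEF and PER3 fell by 1.2 ± 0.14 and 0.81 ± 0.1, while BMAL1, the activator, rose by 0.98 ± 0.11. Splicing regulators fell in 16 and rose in 4 of 33 (2 without control replicate 1 at 48 h). HNRNPA2B1, an RNA-binding protein, fell by 0.96 ± 0.08 with its other probe sets at -0.56 to -0.19, and CLK3, a kinase of splicing factors, rose by 0.94 ± 0.12.

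Interferon-stimulated genes were divided, 9 higher and 9 lower of 24. ISG20, an exonuclease, rose 4.42-fold, while IFI44L and IFIT1 fell 3.85-fold and 3.46-fold. Of 13 ABC efflux pumps 6 rose and 3 fell. ABCB6, a porphyrin transporter, rose by 1.74 ± 0.18 (0.88 over its probe sets) and ABCB10, of the inner mitochondrial membrane, fell by 1.1 ± 0.08. Of 14 histone genes 5 rose and 4 fell, with H2AC6 higher by 0.85 ± 0.12 and H1-10 lower by 0.81 ± 0.14.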
